A study of Mus musculus with 6 samples.

Results

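LOW_21 is a cluster of 68 cells from the adult mouse striatum. Its members are the cells that the study's cell annotation places in cluster LOW_21, 68 of 3185 annotated cells at 3 months (3m) and of 14373 in all. The study left the cluster unidentified because the lineage markers it used were low there. Striatal cell suspensions were enriched for ACSA2, an antigen on the surface of astrocytes, by magnetic sorting, and their single cells were sequenced from the 3′ ends of transcripts (10x Chromium). All mice were wild-type male C57BL/6 mice, at postnatal day 3 (P3) or at 3m, with 3 libraries per age, each a separate preparation that pooled 2 to 5 animals. LOW_21 was set beside 4 other 3m types, which were endothelial cluster END_17 (163 cells), astrocytes (AST_3m, 1111 cells), oligodendrocytes (ODC, 1731 cells) and microglia (MIC_16, 60 cells), and beside PER_6, the cluster that the study named pericytes (628 cells at P3, 16 at 3m).

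Pericytes are mural cells that sit in the basement membrane of capillaries and share it with the endothelium. They are recruited by PDGF-B from endothelial cells through the receptor PDGFRB, and in the brain they support the barrier and take part in setting capillary tone. Vascular smooth muscle cells, their neighbours on arterioles, carry a contractile apparatus built on *Acta2*, *Tagln* and *Myh11*. Pericytes of the brain are known for vitronectin (*Vtn*), the G-protein regulator *Rgs5*, the potassium channel subunits *Kcnj8* and *Abcc9*, *Pdgfrb* and the P5-type ATPase *Atp13a5*.

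LOW_21 was found in every 3m library and in none at P3. It held 25 cells in replicate 1, 22 in replicate 2 and 21 in replicate 3. These were 3.12% (95% Wilson interval 2.12 to 4.57), 1.57% (1.04 to 2.37) and 2.13% (1.40 to 3.24) of the annotated cells, a mean of 2.28 ± 0.784% (SD, n = 3). Replicate 1 was the highest by this measure and replicate 3 by the share of all barcodes (1.51, 1.24 and 1.61%). At P3, 0 of 11188 cells belonged to the cluster, which allows a share of up to 0.0268%. Intervals and limits of this kind cover counting error only.

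The 68 cells summed to 66435, 39449 and 41366 UMIs (unique molecular identifiers, each a captured transcript) in the 3 libraries, so 1 UMI weighs more here than in any of the larger clusters. Sums are given as CPM, UMIs scaled to 1000000 in the same sum, and since UMIs count 3′ ends, levels were not compared between genes. LOW_21 shared no cell barcode with another library, and Scrublet marked 1 of its 68 cells as a doublet (76 of 4730 barcodes at 3m). 3m replicate 1 stood apart in its mitochondrial share, in every type shown. All 3m libraries held 5471573 to 10522151 UMIs and all P3 libraries 32193875 to 37795021.

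The pericyte markers were all detected in LOW_21. *Vtn*, a secreted adhesion protein, had 38850, 29076 and 28115 CPM in replicates 1, 2 and 3 of LOW_21, against 3728, 3833 and 4438 in END_17 and 4875, 4963 and 3716 in PER_6 at P3. Its LOW_21 libraries lay above every library of those clusters, and AST_3m and ODC had at most 42.7 CPM. The log2(fold change) over END_17 was 2.71 ± 0.50 (± SE, edgeR).

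*Kcnj8*, the pore subunit of an ATP-sensitive potassium channel, had 1942, 2003 and 967 CPM in LOW_21 and 215, 140.1 and 204 in END_17, and none in AST_3m or MIC_16. *Abcc9*, its regulatory subunit, had 978, 887 and 1136 CPM in LOW_21 and 164, 144 and 168 in END_17. The libraries of LOW_21 and END_17 did not overlap for either subunit, and the log2(fold change) over END_17 was 2.84 ± 0.22 and 2.40 ± 0.23.

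*Pdgfrb*, the receptor for PDGF-B, had 2168, 1191 and 1281 CPM in LOW_21 and 240.1, 163 and 199.5 in END_17, a log2(fold change) of 2.71 ± 0.18. *Atp13a5* had 1069, 1267 and 1354 CPM against 112, 210.1 and 175, a log2(fold change) of 2.70 ± 0.23. Both were again higher in every LOW_21 library than in any library of the other 3m types. *Rgs5* differed least of the markers from END_17, at 6036, 5222 and 4666 CPM in LOW_21 and 2261, 1969 and 1608 in END_17 (1.20 ± 0.30).

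**Figure D1:**
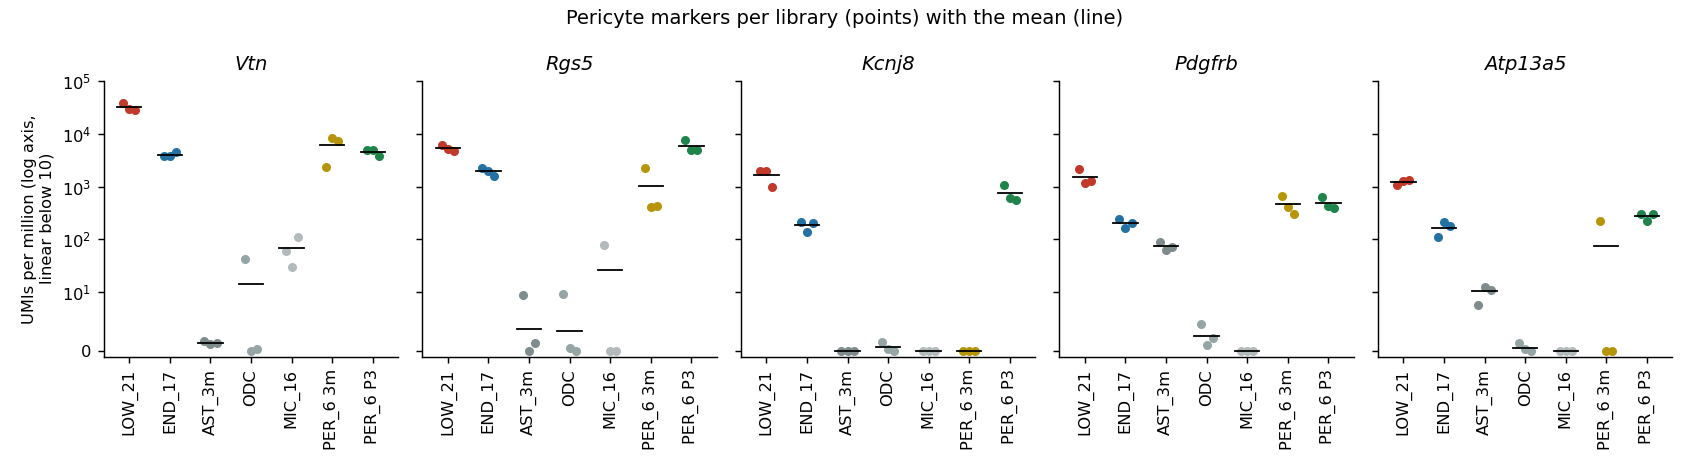
CPM of the 5 pericyte markers (log axis, linear below 10) in each library of LOW_21, the other 3m types and PER_6 at 3m and P3, with points for libraries and a line for their mean. LOW_21 lies above END_17 for every marker, while for Rgs5 it overlaps PER_6 at P3 and Kcnj8 is at 0 in AST_3m, MIC_16 and PER_6 at 3m.

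Counted per cell, *Vtn* and *Rgs5* had a UMI in 68 of 68 LOW_21 cells, *Atp13a5* in 66, and *Kcnj8* and *Pdgfrb* in 61 each. With every cell thinned to 900 UMIs, *Vtn* was found in 100% of LOW_21 cells, 41.7% of END_17 cells and 0.181% of AST_3m cells, and *Kcnj8* in 70.6%, 13.5% and 0%. Unthinned, the shares with a *Vtn* UMI were 100%, 51.5% and 0.540%, at median depths of 1947.5, 5934 and 3632 UMIs per cell. Ranked by fold over all other 3m cells among genes of at least 100 CPM, *Kcnj8* was rank 8, *Vtn* 11, *Atp13a5* 31, *Pdgfrb* 86 and *Rgs5* 101. LOW_21 is called pericyte-like here by the levels of these 5 markers, 1 of them in the 10 leading genes. The markers were known when the cluster was chosen, so the name describes the cluster and was not tested. All 5 also had UMIs in END_17 and ODC, so detection alone does not set LOW_21 apart.

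Markers of other cells were low in LOW_21. The 5 microglial and 5 red blood cell markers had 0 UMIs. Astrocyte markers, the type named in the sample labels, summed to 431 to 725 CPM in LOW_21 libraries and 13996 to 14733 in AST_3m. Endothelial markers summed to 76.0 to 557 CPM, against 12298 to 18379 in END_17. The 5 oligodendrocyte markers summed to between 0 and 166 CPM, against 6654 to 11071 in ODC. Of the smooth muscle markers, *Acta2*, *Tagln* and *Cnn1* were at 0 and the list summed to 50.7 to 169 CPM. The fibroblast list summed to 96.7 to 181 CPM on 22 UMIs. This was above END_17 (19.5 to 78.3), AST_3m (12.2 to 14.3) and ODC (at most 0.369) and overlapped MIC_16 (9.93 to 112). It was below PER_6 at 3m (1868 to 6007) and at P3 (473 to 590).

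The DNA just upstream of 3 of these genes is shown because both channel subunits and *Vtn* were high together in LOW_21. The windows run from 250 bases before to 50 bases after the RefSeq transcript start (GRCm38.p6), 5′ to 3′ on the gene's strand, with capitals on matches to TGGGAA or its reverse complement TTCCCA, the core letters bound by the Notch partner RBPJ. They are *Vtn* at chr11:78498870-78499169 (plus strand), *Kcnj8* at chr6:142571565-142571864 (minus strand) and *Abcc9* at chr6:142702225-142702524 (minus strand).
Vtn: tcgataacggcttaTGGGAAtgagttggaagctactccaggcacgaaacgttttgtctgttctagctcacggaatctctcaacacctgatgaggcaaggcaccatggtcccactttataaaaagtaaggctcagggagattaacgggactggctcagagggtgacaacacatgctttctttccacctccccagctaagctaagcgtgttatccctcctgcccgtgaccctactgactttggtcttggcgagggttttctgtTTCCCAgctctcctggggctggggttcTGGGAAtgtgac
Kcnj8: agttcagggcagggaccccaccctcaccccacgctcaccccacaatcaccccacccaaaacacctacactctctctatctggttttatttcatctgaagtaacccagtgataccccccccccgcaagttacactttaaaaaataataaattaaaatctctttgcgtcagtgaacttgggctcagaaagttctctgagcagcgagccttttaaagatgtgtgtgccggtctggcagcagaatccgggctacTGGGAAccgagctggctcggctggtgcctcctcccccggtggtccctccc
Abcc9: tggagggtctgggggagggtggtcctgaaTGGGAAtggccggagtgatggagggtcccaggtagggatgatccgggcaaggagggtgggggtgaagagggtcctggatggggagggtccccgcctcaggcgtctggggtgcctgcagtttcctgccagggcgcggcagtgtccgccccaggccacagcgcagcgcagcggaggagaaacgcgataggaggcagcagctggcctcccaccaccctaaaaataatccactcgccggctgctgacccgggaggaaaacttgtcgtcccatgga
The *Vtn* window held 3 matches and those of *Kcnj8* and *Abcc9* 1 each, while the *Rgs5* and *Atp13a5* windows held none. Among 32851 promoter windows of the same length, 25.6% held a match, so these letters are common. Neither the forkhead letters GTAAACA (3.65% of windows) nor the T-box letters GGTGTGA (3.98%) were present in any of the 5 windows on either strand.

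The median LOW_21 cell held fewer UMIs than the median cell of each other 3m type. The median cell had 2474, 1614 and 1893 UMIs in LOW_21 and 8307, 4258 and 5818 in END_17. The ratio of medians was 0.332, lower in 3 of 3 libraries (log2 ratio -1.59 ± 0.176 SD, p = 0.25, exact paired permutation test over 3 libraries, two-sided, the smallest p this design allows). Against AST_3m the ratio was 0.504, against ODC 0.346 and against MIC_16 0.477, lower in 3 of 3 libraries each. The share of mitochondrial UMIs was 5.73, 2.67 and 3.06% in LOW_21 and 5.84, 2.97 and 3.02% in END_17, a mean difference of -0.127 ± 0.175 percentage points (p = 0.5, exact paired permutation test, two-sided). It was lower than in AST_3m by a mean of 2.93 points in 3 of 3 libraries. In every comparison below, the lower depth of LOW_21 cells moves with the cluster, and its part in the results was not tested beyond thinning the sums.

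**Figure D2:**
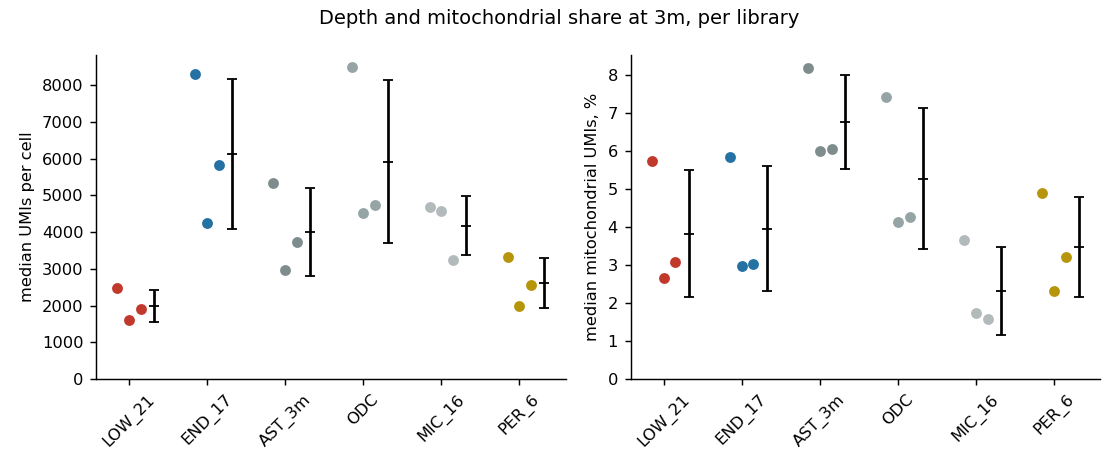
Median UMIs per cell (left) and median mitochondrial share in percent (right) in each 3m library by type, with points for libraries and bars for mean ± SD (n = 3). The 3 LOW_21 points, from 1614 to 2474 UMIs, lie below the END_17, AST_3m, ODC and MIC_16 points of the same libraries.

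The comparison with END_17 asks how these cells differ from the endothelial cells of the same suspensions. Summed per library and fitted with edgeR, 1103 of 5514 genes (20.0%) passed the call, which required an adjusted p no greater than 0.05 and a log2(fold change) of 1 or more in size. Of these, 413 (7.49%) were higher and 690 (12.5%) lower in LOW_21. With no scaling beyond library totals, 530 were higher and 525 lower, since the median gene then moved up by 0.21 from its log2(fold change) of -0.16. The study drew its clusters on the same genes, so a call says how a difference compares with the spread between libraries and is no evidence that the clusters are separate types, and no p is given per gene. Against AST_3m 1832 genes (33.2%) were called, 788 (14.3%) higher and 1044 (18.9%) lower, or 1195 and 679 with no scaling. Against ODC 2067 (37.5%) were called, 964 (17.5%) higher and 1103 (20.0%) lower, or 1227 and 775 with no scaling. All 26 genes of the pericyte list described below were called higher in both.

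END_17 itself held pericyte transcripts, and they were concentrated in some of its cells. In 84 of 163 END_17 cells (30 of 59, 22 of 47 and 32 of 57 by library), at least 2 pericyte markers and at least 3 of their UMIs were present, and 46 cells had all 5 markers. Every END_17 cell also had at least 2 endothelial markers. Conversely, 3 of 68 LOW_21 cells had at least 2 endothelial markers. The marked END_17 cells had a median of 8501 UMIs and the others 4231. Thinned to 900 UMIs each, 61 of 163 END_17 cells (37.4%, 95% Wilson interval 30.4 to 45.1) carried both marker sets, against 0 of 1103 AST_3m cells, 1 of 1730 ODC cells and 1 of 68 LOW_21 cells. Scrublet marked 3 of the 84 cells as doublets and 5 of the other 79.

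The remaining 21 genes of the pericyte list, which did not choose these cells, summed to 4232, 4891 and 4234 CPM in the marked END_17 cells of replicates 1 to 3 and to 40.6, 48.2 and 79.9 CPM in the others. LOW_21 had 17145, 17187 and 15907 CPM. All 21 genes were higher in the marked cells in 3 of 3 libraries, and the marked cells lay at a level between the other END_17 cells and LOW_21. Smooth muscle markers were higher in the marked cells too (1317, 320 and 359 CPM, against 5.07, 28.9 and 7.26). Without the marked cells, the summed pericyte markers of END_17, which had chosen those cells, went from 6529 to 230 CPM. LOW_21 was then called higher at 497 of 3477 genes (14.3%) and lower at 546 (15.7%), and 332 genes were called higher in both fits, 80.4% of the 413 and 66.8% of the 497.

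**Figure D3:**
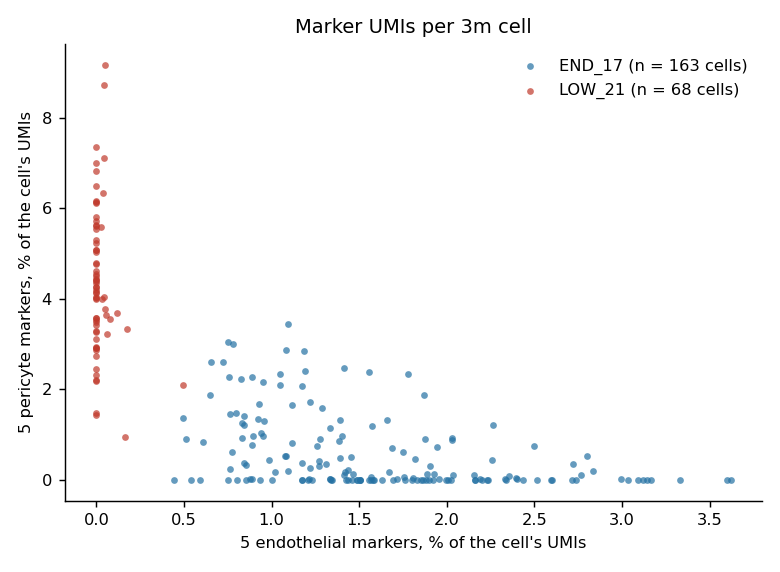
Each point is a 3m cell of LOW_21 (68) or END_17 (163), placed by the percent of its UMIs from 5 endothelial markers (horizontal) and from 5 pericyte markers (vertical). LOW_21 cells run from 0.945 to 9.17% pericyte markers with a median of 0% endothelial markers, and END_17 cells run from 0 to 3.44% pericyte markers with at least 0.442% endothelial markers.

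Of the 26 pericyte identity genes, all 26 had UMIs in LOW_21 and 25 were called higher than in END_17, with *Tbx18* (1.05 ± 0.96, 5 UMIs) the exception. Their median log2(fold change) was 2.41, against -0.16 over all genes tested. Without the marked END_17 cells 25 of 25 tested genes were called higher, with a median of 9.54, or 7.19 with the 12 genes then at 0 UMIs in END_17 at their bounds. Those cells were marked by 5 genes of this list, so leaving them out lowers the list in END_17 by choice, and this count tests nothing. The 12 genes passed the filter only through other clusters of the fit. In 25 of the 26, every LOW_21 library lay above every library of END_17, AST_3m, ODC and MIC_16, a pattern found in 20.2% of 1749 genes of at least 100 CPM in LOW_21. The list was chosen with the cluster's markers known, so its counts describe the cluster. *P2ry14*, a receptor for UDP-sugars, had 1355, 1267 and 991 CPM in LOW_21 and 133, 128 and 129 in END_17 (2.96 ± 0.23). *Cspg4*, the NG2 proteoglycan, was at 2.35 ± 0.35 and *Anpep*, aminopeptidase N, at 2.54 ± 0.51.

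Over all genes tested against END_17, 7.49% were called higher and 12.5% lower, shares to set beside each list count against END_17 below. Of 8 tested ion channel genes 6 were called higher and none lower (median 2.00). Without the marked END_17 cells all 6 that could be tested were called higher, with a median of 9.49, or 6.82 with 4 genes at their bounds. *Kcnj8*, a member of this list, was among the markers that chose those cells. Besides *Kcnj8* and *Abcc9* these included *Atp1b2*, a β subunit of the sodium pump, at 798, 507 and 629 CPM in LOW_21 and 157, 265 and 153 in END_17 (1.63 ± 0.32), and the calcium-activated chloride channel *Ano1* (1.47 ± 0.54). *Kcnj2*, *Kcna5*, *Trpc6* and *Piezo1* were at 0 UMIs in LOW_21, and with 147250 UMIs in all a count of 0 allows up to 20.4 CPM.

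Receptors and enzymes that relay vasoactive signals were called higher at 10 of 15 tested genes and lower at 1, *Gnas* (median 2.03, and 4.89 without the marked END_17 cells, or 4.48 with genes at 0 at their bounds). *Rgs5*, a member of this list, was also among the markers that chose the marked cells. The endothelin receptor *Ednrb* differed most, with 120.4, 50.7 and 242 CPM in LOW_21 and 0, 19.5 and 9.73 in END_17 (3.90 ± 0.76), and this value was 3.11 without replicate 1 and 4.96 without replicate 2. Both subunits of the nitric oxide receptor, *Gucy1a1* (1.39 ± 0.37) and *Gucy1b1* (2.31 ± 0.25), the cGMP phosphodiesterase *Pde5a* (2.03 ± 0.48), the cGMP-dependent kinase *Prkg1* (2.41 ± 0.62) and the adenosine receptor *Adora2a* (2.64 ± 0.60) were called higher. *Agtr1a* and *Ptger1* were at 0 UMIs.

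Solute transporters split in both directions, with 5 of 14 called higher and 8 lower. The higher ones were *Atp13a5*, the amino acid and GABA carriers *Slc6a20a* (2.79 ± 0.29) and *Slc6a13* (2.68 ± 0.50), the folate carrier *Slc19a1* (2.62 ± 0.27) and *Slc38a11* (2.71 ± 0.40). *Slc6a20a* had 978, 532 and 508 CPM in LOW_21 and 80.0, 81.7 and 92.5 in END_17. The lower ones were transporters of the endothelial barrier, among them the glucose carrier *Slc2a1*, with 60.2, 0 and 72.5 CPM in LOW_21 and 1661, 693 and 859 in END_17 (-4.86 ± 0.37). The efflux pump *Abcb1a* had 1 UMI in LOW_21 and 990 in END_17, a ratio of 119 (95% counting interval 21.2 to 4685).

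Of the PDGF and angiopoietin signals, 6 of 8 tested genes were called lower and none higher (median -4.44, or -4.09 with *Tek* at its bound). They are the ligand and receptors of the endothelial side. *Pdgfb*, the ligand of PDGFRB, had 2 UMIs in LOW_21 and 336 in END_17, a ratio of 20.1 (95% counting interval 5.52 to 167). The VEGF receptors *Flt1* (-4.59 ± 0.40) and *Kdr* (1 UMI against 358, a ratio of 42.9 (95% counting interval 7.64 to 1697)) were lower, and the angiopoietin receptor *Tek* was at 0 UMIs in LOW_21, at least 11.8-fold lower on a floor of 3 UMIs over the group. Without replicate 1 this floor rose from 20.4 to 37.1 CPM, and the limits given for *Tek*, *Jag2*, *Fn1*, *Isg15*, *Cdh5*, *Ctla2a*, *Gkn3* and *Mal* were 1.56 to 2.18 times smaller.

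Within the Notch list, the mural receptor *Notch3* (452, 532 and 242 CPM in LOW_21, 149, 136 and 136 in END_17, 1.27 ± 0.29) and the target *Heyl* (331, 329.5 and 193, 51.6, 42.8 and 38.9, 2.40 ± 0.39) were called higher, 2 of 10 tested genes. The ligand *Jag2* and the target *Hey1*, both at 0 UMIs in LOW_21, were called lower, *Jag2* by at least 6.26-fold. With 2 of 10 genes called each way, no direction is read for the Notch list. TGF-beta and BMP genes had 8 of 12 tested members lower and none higher (median -1.89). *Id1*, a BMP target, had 75.3, 0 and 24.2 CPM in LOW_21 and 1254, 732 and 409 in END_17 (-4.63 ± 0.41), and *Id3* (-3.97 ± 0.31), the receptor *Acvrl1* (-3.31 ± 0.44) and the co-receptor *Eng* (-1.52 ± 0.30) lay lower as well.

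Mural transcription factors were called higher at 7 of 13 tested genes and lower at 1, *Epas1* (-1.02 ± 0.22), with a median of 1.69. *Foxs1* had 437, 329.5 and 242 CPM in LOW_21 and 35.6, 15.6 and 41.4 in END_17 (3.17 ± 0.45). *Zic1* (2.59 ± 0.33), *Tbx2* (2.42 ± 0.55), *Foxd1* (2.36 ± 0.36) and *Prrx1* (2.24 ± 0.69) were called higher too. The forkhead factors *Foxf2* (-0.03 ± 0.45) and *Foxc1* (-0.17 ± 0.42) had no call. *Epas1* and *Gnas* lost their calls under RLE scaling, with no scaling and under DESeq2, *Epas1* also without replicate 3 and *Gnas* without replicate 1.

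Respiratory chain genes differed between paralogs. *Ndufa4l2* had 2393, 2839 and 2732 CPM in LOW_21 and 336, 475 and 455 in END_17 (2.42 ± 0.18), whereas its paralog *Ndufa4* had 30.1, 76.0 and 218 and 681, 864 and 883 CPM (-3.28 ± 0.37). *Cox4i2* was higher in LOW_21 (2.13 ± 0.20) and *Cox4i1* had no call (-0.15 ± 0.23). *Higd1b* was higher (2.15 ± 0.21) and *Higd1a* had no call (-0.78 ± 0.37). Of 7 tested genes of this list 3 were called higher and 1 lower.

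The contractile genes were called in both directions. *Acta2* had 0 UMIs in LOW_21 and 493, 58.4 and 75.4 CPM in END_17, at least 12.9-fold lower, and *Tagln* was at least 7.34-fold lower. Of the 323 *Acta2* UMIs of END_17, 211 lay in 1 cell, and 14 of 163 cells held any. Without replicate 1 the limits fell to 1.86-fold for *Acta2* and 2.10-fold for *Tagln*, and DESeq2 did not call *Acta2*. The myosin light chain *Myl9* (1.82 ± 0.23), the actin-binding *Cald1* (1.83 ± 0.19), *Tpm2* (1.35 ± 0.41) and the myosin phosphatase inhibitor *Ppp1r14a* (2.74 ± 0.30) were called higher, 4 of 11 tested genes against 2 lower. *Ppp1r14a* had 1114, 709.8 and 508 CPM in LOW_21 and 101, 89.5 and 105 in END_17. In END_17, *Acta2* and *Tagln* came with the smooth muscle signal of the marked cells described above, and without those cells 6 of 9 tested contractile genes were called higher and none lower (median 4.08, against 0.90 with them).

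Among basement membrane genes, 6 of 15 tested were called higher and 1 lower (median 0.53), and 2 were higher without replicate 1. Laminin chains *Lama2* (1.98 ± 0.50) and *Lamc1* (1.90 ± 0.29) and *Egflam*, encoding pikachurin (2.45 ± 0.52), were among the higher. Collagen IV did not differ by call, with *Col4a1* at 331, 431 and 218 CPM in LOW_21 and 324, 292 and 324 in END_17 (-0.20 ± 0.28). Fibronectin (*Fn1*) was at 0 UMIs in LOW_21 and at 432, 261 and 421 CPM in END_17, at least 19.3-fold lower. Of 6 tested fibroblast genes, *Col1a2* was called higher (1.78 ± 0.61) and *Apod* lower (-1.74 ± 0.61), with a median of -0.78 that was 0.09 with *Col1a1* and *Pdgfra* at their bounds. *Col1a2* lost its call with any 1 library left out and with no filter, and *Apod* under DESeq2, RLE scaling and no scaling. Without the marked END_17 cells 2 of 6 were higher and none lower, and the median turned to 1.80, or 0.99 with genes at 0 at their bounds.

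Interferon and class I genes were called lower at 8 of 10 and higher at 1 (median -2.16). The class I genes *H2-K1* (135, 101 and 96.7 CPM in LOW_21, 802, 304 and 367 in END_17, -2.45 ± 0.31) and *H2-D1* (-1.87 ± 0.27) were lower, *Isg15* was at 0 UMIs (at least 18.3-fold lower), and *Ifitm1* was higher (2.13 ± 0.22). All 9 immediate early genes were tested, 7 were called lower and none higher (median -2.62, or -2.21 with *Fosb* and *Atf3* at their bounds). These genes are induced by cell isolation as well as by signals, and their sum was 314 to 467 CPM in LOW_21, 1964 to 2343 in END_17, 106 to 183 in AST_3m, 178 to 281 in ODC and 8206 to 11612 in MIC_16. Cytosolic ribosomal protein genes were lower at 45 of 77 and higher at none (median -1.06), with sums of 62201 to 72676 CPM in LOW_21 and 110224 to 135989 in END_17. Between 18 and 21 of the 77 were called lower under RLE scaling, no scaling and DESeq2.

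**Figure D4:**
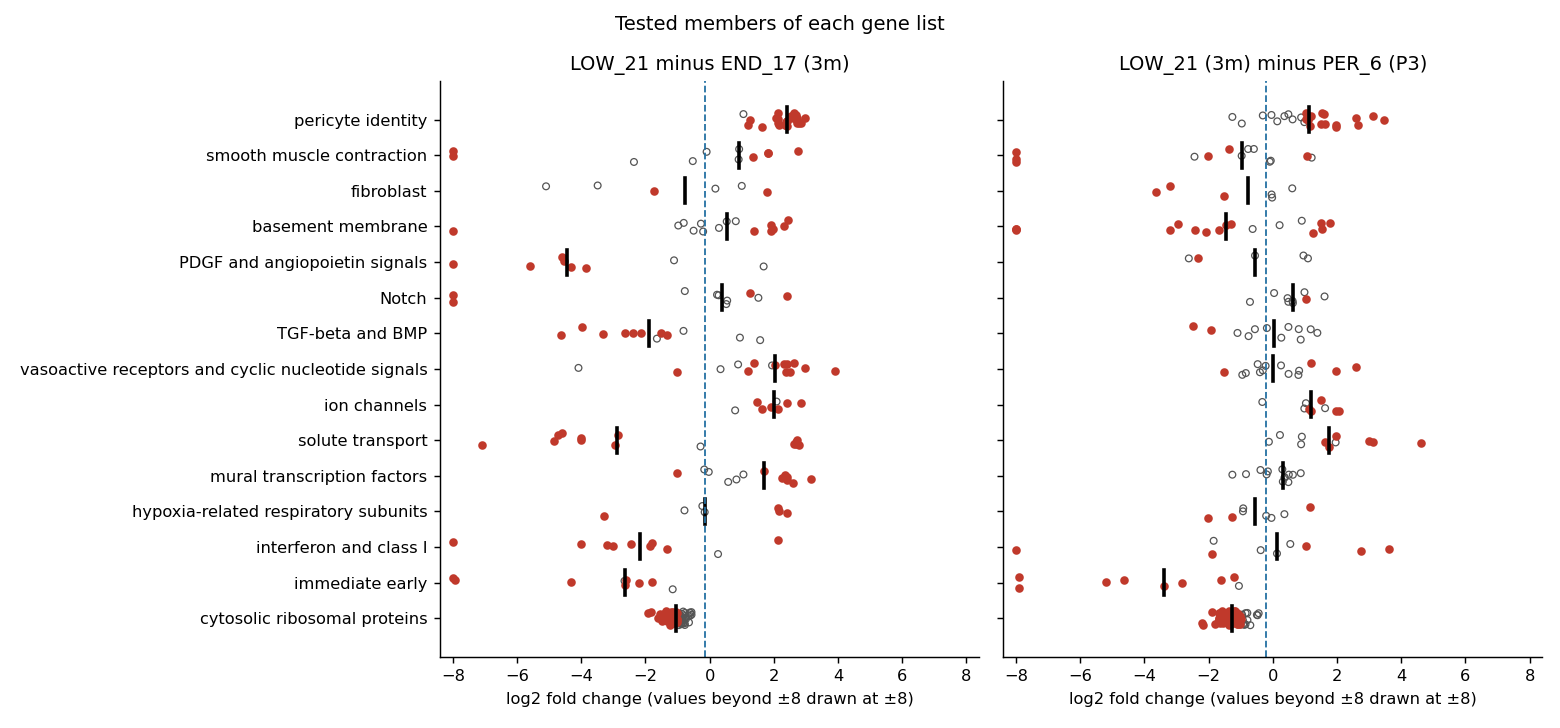
Log2(fold change) of each tested member of each gene list, LOW_21 over END_17 at 3m (left) and LOW_21 at 3m over PER_6 at P3 (right), with called genes filled, list medians as black bars and the median of all genes as a dashed line. Pericyte identity genes lie to the right of that line against END_17 (median 2.41), and values of genes with 0 UMIs in LOW_21, drawn at -8 or nearby, are fitted values that depend on the prior.

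The genes that set LOW_21 furthest above all 4 other 3m types were *Nts*, *Spp1*, *Pth1r*, *Cped1*, *Carmn*, *Foxs1*, *Bmp4*, *Fhl2*, *Twist1* and *Rem1*. *Nts*, which encodes the peptide neurotensin, had 1309.6, 811 and 774 CPM in LOW_21 and 65.8, 81.7 and 102 in END_17 (3.35 ± 0.27). *Pth1r*, the parathyroid hormone receptor, had 978, 786 and 508 and 65.8, 70.0 and 82.7 CPM (3.14 ± 0.30). Every library of LOW_21 lay above those of END_17 for each of the 10, as the rule required.

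*Spp1*, encoding the matrix protein osteopontin, had 135, 177 and 145 CPM in LOW_21 and 3.56, 11.7 and 21.9 in END_17, on 22 and 14 UMIs (3.55 ± 0.63). The growth factor *Bmp4* had 166, 127 and 96.7 CPM and 10.7, 3.89 and 21.9 CPM (3.17 ± 0.65, and 3.92 without replicate 3). *Carmn*, a long noncoding RNA at the miR-143/145 locus, was at 3.22 ± 0.49. Their values rest on few UMIs, and the 10 genes together summed to 449, 477 and 509 CPM in the marked END_17 cells and to 5.07, 9.63 and 21.8 CPM in the others, against 4124, 3270 and 2732 CPM in LOW_21.

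**Figure D5:**
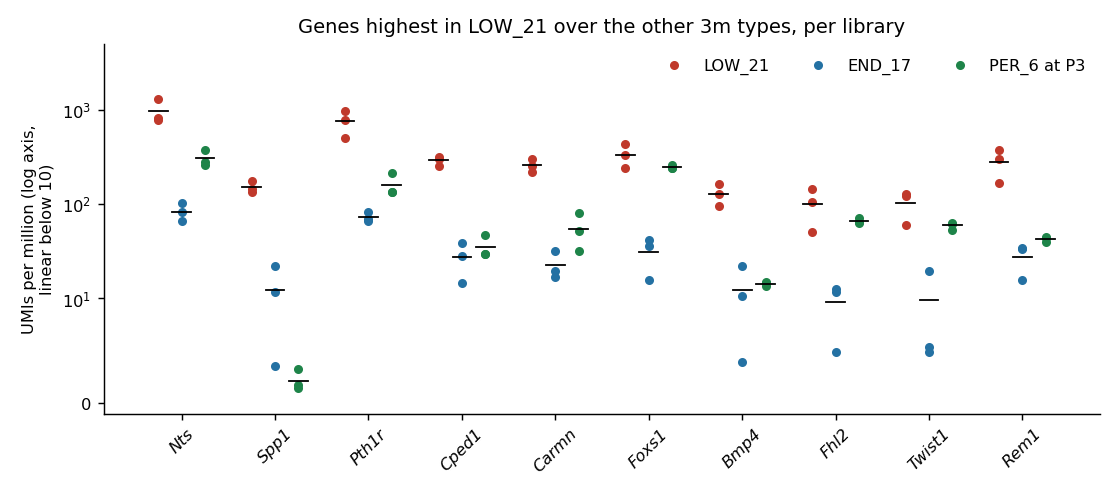
CPM (log axis, linear below 10) of the 10 genes furthest above the other 3m types, per library, in LOW_21, END_17 and PER_6 at P3, with points for libraries and a line for the mean. LOW_21 lies above END_17 for all 10 as the choice of genes required, and above PER_6 at P3 for 7 of them, the exceptions being Fhl2, Foxs1 and Twist1.

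Further genes with the largest values over END_17 were *Ifi30*, a lysosomal thiol reductase (3.65 ± 0.56), *Cox6b2* (3.50 ± 0.60), and *F2r*, the thrombin receptor (3.46 ± 0.69, or 2.74 without replicate 1 and 4.31 without replicate 3). The lowest relative to END_17 were the haemoglobin genes *Hbb-bs*, *Hba-a1*, *Hba-a2* and *Hbb-bt*, with 0 UMIs in LOW_21. *Hbb-bs* had 21129, 11336 and 9054 CPM in END_17, but 11 of 163 END_17 cells held its UMIs. The endothelial cadherin *Cdh5* (at least 19.6-fold lower), *Ctla2a* (23.9-fold), *Gkn3* (26.9-fold) and *Mal* (33.0-fold) followed, all at 0 UMIs.

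PER_6 at P3 is the nearest cluster by name, and LOW_21 was set beside it to compare the adult cells with the study's neonatal pericytes. Age, cluster and library cannot be told apart in this comparison, because LOW_21 has no P3 cell. Of 6865 genes tested, 1012 (14.7%) were called, 362 (5.27%) higher and 650 (9.47%) lower in LOW_21, with a median over all genes of -0.21. With no scaling the split was 446 higher and 450 lower, and under DESeq2 it was 409 and 447. Without P3 replicate 1, 2 or 3, 458, 370 or 398 genes were called, out of fewer genes tested. More of these were then higher than lower, at 277 and 181, 222 and 148, and 226 and 172. Thinned sums gave 116 higher and 70 lower, and leaving out 3m replicate 1 gave 155 and 570. Whether most calls were lower thus depended on the setting. PER_6 was also mixed, with smooth muscle markers at 2540 to 9893 CPM at P3. Restricted to the 353 PER_6 cells with pericyte markers and no UMI of 6 contractile or fibroblast genes, 541 of 4088 genes (13.2%) were called, 273 (6.68%) higher and 268 (6.56%) lower.

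Pericyte identity genes were called higher in LOW_21 at 16 of 26 and lower at none (median 1.11), against 5.27% and 9.47% of all genes tested. The higher count was 8 without 3m replicate 1 and 11 without 3m replicate 2 or 3, and up to 1 gene was lower with 1 library left out. Against the restricted PER_6 cells, which 5 genes of this list helped to choose, 9 were higher and 1 lower. *Vtn* (2.64 ± 0.39), *P2ry14* (2.59 ± 0.26), *Atp13a5* (1.98 ± 0.25) and *Pdgfrb* (1.54 ± 0.28, no call at 0.97 without 3m replicate 1) were called higher. *Pdgfrb* had 622, 426 and 395 CPM in PER_6 at P3 and *Atp13a5* 304, 218 and 299. *Rgs5* did not differ by call, with 7741, 4969 and 4833 CPM in PER_6 at P3 (-0.31 ± 0.31, and 0.29 without P3 replicate 1), and neither did *Higd1b* (-0.04 ± 0.28) or *Ndufa4l2* (0.36 ± 0.27). *Kcnj8* lay just under the fold threshold (0.98 ± 0.29) and was called at 1.67 without P3 replicate 1.

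Solute transporters were called higher in LOW_21 at 6 of 11 tested genes and ion channels at 5 of 9, with none lower. Without 3m replicate 1 the ion channel count was 1 of 11 and the transporter count 4 of 10, and against the restricted PER_6 cells they were 3 of 7 and 4 of 7. *Slc6a20a* had 77.4, 57.9 and 75.0 CPM in PER_6 at P3 (3.14 ± 0.28) and *Slc6a13* 18.7, 31.6 and 23.3 CPM (3.00 ± 0.42). *Ggt1*, a γ-glutamyltransferase, had 331, 380.2 and 338 CPM in LOW_21 and 28.0, 28.1 and 26.2 in PER_6 at P3 (3.48 ± 0.33). The libraries of the clusters did not overlap for any of these genes.

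Basement membrane genes were lower at 10 of 17 and higher at 4 (median -1.47, or -1.30 with *Nid2*, *Col18a1* and *Fn1* at their bounds). *Col4a1* had 331, 431 and 218 CPM in LOW_21 and 2754, 2162 and 3022 in PER_6 at P3 (-3.19 ± 0.33), and *Col4a2* was at -2.95 ± 0.33. Higher were *Lamb2* (1.77 ± 0.34), *Lama2* (1.25 ± 0.39), *Egflam* (1.54 ± 0.41) and the SPARC-like glycoprotein *Sparcl1*, with 1565, 2231 and 2466 CPM in LOW_21 and 714, 556 and 658 in PER_6 at P3 (1.50 ± 0.26). With 1 library left out, 2 to 3 genes of the list were higher and 6 to 10 lower. Without 3m replicate 1 and against the restricted PER_6 cells 2 were higher, *Lamb2* and *Sparcl1*. The fibroblast list had 3 of 6 lower, *Col3a1*, *Igf2* and *Col1a2*.

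Contractile genes were lower at 5 of 13 and higher at 1, *Ppp1r14a* (1.08 ± 0.29, no call at 0.46 and 0.94 without 3m replicate 1 or 2). *Acta2* had 1494, 4039 and 6408 CPM in PER_6 at P3, so that LOW_21 was at least 183-fold lower, and *Tagln* was at least 103-fold lower. These are also the genes that the restricted PER_6 cells lack by choice. Most of the other lowest genes are known from DNA replication and cell division. *Hist1h1b*, *Pclaf*, *Ube2c*, *Prc1*, *Cenpf*, *Hist1h2ae* and *Top2a* had 0 UMIs in LOW_21, at least 39.6-fold lower for *Hist1h1b* and at least 9.54-fold for *Top2a*, and so did *Tmem176b* (at least 12.2-fold). Without 3m replicate 1 each of these limits was 1.82 times smaller.

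Among the genes highest over PER_6 at P3, *Spp1* had 3.29, 1.76 and 1.46 CPM there (5.77 ± 0.53) and the acute-phase gene *Saa2* was at 7.02 ± 0.58. *Ajap1* (6.58 ± 0.66), *Serpini1* (5.44 ± 0.59), *Cygb* encoding cytoglobin (4.84 ± 0.58), *Sebox* (4.55 ± 0.53) and *Saa1* (4.32 ± 0.57) followed, on 15 to 22 UMIs in LOW_21. The myelin gene *Mbp*, first by value, had 102 UMIs in LOW_21 and 0 in PER_6 at P3, at least 1001-fold higher, but 9 cells held them and 1 cell held 59.

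Class I genes, lower than in END_17, were higher than in PER_6 at P3. *H2-K1* had 10.4, 8.78 and 5.10 CPM in PER_6 at P3 (3.61 ± 0.53) and *H2-D1* 52.1, 27.2 and 29.1 CPM (2.75 ± 0.37), and 3 of 9 genes of that list were called higher and 2 lower. Immediate early genes were lower at 8 of 9 (median -3.40, or -1.61 with *Fosb* and *Atf3* at their bounds), with sums of 1912 to 3036 CPM in PER_6 at P3, and ribosomal protein genes were lower at 62 of 77 (median -1.26). Without P3 replicate 1, 2 or 3 the immediate early count was 3, 4 or 4 and the ribosomal count 28, 21 or 42, and against the restricted PER_6 cells they were 5 and 35. *Cox4i1* (-1.29 ± 0.28) and *Ndufa4* (-2.03 ± 0.44) were lower and *Cox4i2* was higher (1.17 ± 0.26), 2 and 1 of 8 tested genes. *Cox4i2* lost its call without 3m replicate 2 (0.86) or 3 (0.96), with no filter (0.87) and against the restricted PER_6 cells (0.92).

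Signalling and transcription factor lists were also set against PER_6 at P3, where 14.7% of all genes tested were called (5.27% higher, 9.47% lower). No mural transcription factor of 13 tested was called by edgeR or DESeq2 (median 0.31, 2 with an unadjusted p under 0.05 in edgeR), with *Foxs1* at 0.31 ± 0.28 and *Zic1* at 0.49 ± 0.28. Without P3 replicate 1, 3 of 10 were called higher, *Heyl*, *Zic1* and *Epas1*, and *Epas1* was also called without P3 replicate 2 or 3 and with no scaling. In the Notch list *Notch1* alone was called, higher at 1.02 ± 0.34 (1 of 9). It was not called without 3m replicate 1 (0.16) or 2 (0.97), under DESeq2 (1.03) or against the restricted PER_6 cells (0.90), while 3 Notch genes were called without P3 replicate 1. In the TGF-beta and BMP list 2 of 12 were called lower (*Id3* at -2.49 ± 0.36 and *Tgfb1* at -1.92 ± 0.59), and in the PDGF and angiopoietin list 1 of 5, *Pdgfa* (-2.34 ± 0.61). Of 14 vasoactive genes 3 were called higher and 1 lower, *Gucy1a1* (-1.52 ± 0.33). A missing call in these lists does not show that levels were equal.

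The study's pericyte cluster also held 16 cells at 3m, the same age as LOW_21. They had 48566 UMIs in all, and *Kcnj8* and *Abcc9* were at 0 UMIs, while LOW_21 had 248 and 147. *Acta2* had 13963, 1864 and 2192 CPM and the fibroblast gene *Dcn* 1023, 3935 and 4628 in their 3 libraries. *Vtn* was present at 2312, 8389 and 7368 CPM, and *Spp1* at 267, 1761 and 2375 CPM lay above LOW_21. Against these cells 213 of 5514 genes (3.86%) were called, 126 (2.29%) higher and 87 (1.58%) lower in LOW_21.

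Among the 68 cells themselves, the spread of each gene was set beside counting error. Over 413 genes with at least 50 UMIs the median ratio of the variance to its Poisson expectation was 1.22. This ratio rises with the UMIs of a gene, so it does not rank genes by how much they vary between cells. *Vtn*, with 4891 UMIs, had a ratio of 19.3. Its single cells ran from 8220 to 80939 CPM, with a median of 32880. The lowest cell thus lay within the upper range of END_17 (0 to 26596 CPM). *Nts* had a ratio of 7.58, 151 UMIs in 32 cells, of which 46.4% lay in 5 cells. The ratio was 4.28 for *Rgs5* (800 UMIs) and 4.17 for the matrix protein *Mgp* (194 UMIs). It was 32.5 for the nuclear RNA *Malat1* and 112 for *Gm42418*, a transcript that overlaps ribosomal RNA.

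Barcodes that failed the study's cell filter took no part in the clustering. Of 1545 such 3m barcodes, 20 had pericyte markers and 9 endothelial markers. Each had at least 2 markers and 3 UMIs of its own set and fewer than 2 markers of the other set. Unlike in the rule for END_17 cells, barcodes with at least 2 markers of both sets were thus left out. The 20 were a mixed set, with astrocyte markers at 9710, 0 and 15218 CPM in replicates 1 to 3 and smooth muscle markers at 8877, 13219 and 34.1 CPM, against 3095, 18144 and 1467 CPM of pericyte markers. Over 41 genes that could be tested against the endothelial barcodes without the markers, none was called by edgeR (0.0%), 12 had an unadjusted p under 0.05, and the lowest adjusted p was 0.118. DESeq2 called 5.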

How the data were processed

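Values were computed from 2 deposited tables. The count table held whole UMI counts for 32285 genes and 16690 barcodes of 6 libraries (3 at 3m, 3 at P3), which the authors mapped to mm10 and counted with Cell Ranger (per the study's methods), without normalization. The annotation gave the authors' cluster of each of the 14373 cells that passed their filter (over 500 genes, under 10% mitochondrial UMIs), clustered at resolution 0.6 in Seurat. Groups came from the sample labels, and no preparation or sequencing batch is given there. Separate preparations are the replicates, while clusters of 1 age share them.

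UMIs were summed per library and cluster. edgeR 4.0.16 (R 4.3.3) quasi-likelihood tests with TMM scaling, filterByExpr and Benjamini-Hochberg adjustment were fitted over LOW_21, END_17, AST_3m, ODC, MIC_16 and PER_6 at 3m with library as a term, and over LOW_21 and PER_6 at P3 without one. Standard errors of fold changes were derived from those tests, as the size of the log2(fold change) over the square root of the F statistic. They restate the test and are no separate estimate of error. DESeq2 1.42.0 was an alternative. Genes at 0 UMIs were bounded with a floor of 3 UMIs over the group. Doublets were marked with Scrublet (scanpy 1.11.5) and kept. Thinning drew 900 UMIs per cell with a fixed seed. Scripts were tested on simulated data. Promoters are RefSeq windows of GRCm38.p6. Counts of near-identical genes (haemoglobins, histones, ribosomal proteins) are uncertain where reads were shared, and overlapping genes likewise.

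The cluster, its markers and the gene lists were chosen with earlier results of these data known. Named genes are the 5 markers, list members with the largest differences from END_17 or at 0, and the 10 largest values over all 4 other 3m types and each way against END_17 and PER_6 at P3, with at least 100 CPM in the higher cluster and no overlap of libraries, leaving out predicted genes. Some further list members are given as examples of their role. A few genes that this rule takes are not reported here.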

Additional observations from a re-analysis of the deposited data

How the results depend on the processing

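The number of genes called kept within 1.5 times its reported value under DESeq2, RLE scaling, no scaling and no filter for all 4 cluster comparisons, with doublets left out for the 3 at 3m, and with each 3m library left out. Thinning every sum to 39449 UMIs left 361 calls against END_17, 557 against AST_3m, 588 against ODC and 186 against PER_6 at P3. Without P3 replicates in turn the last comparison ranged from 370 to 458, and over all 6 libraries left out from 370 to 965. Thinning or leaving out a P3 library lowers the median sum and so fewer genes pass the filter. More calls against PER_6 at P3 were then higher than lower. The count was 541 with restricted PER_6 cells, an alternative chosen after seeing the data. With PER_6 cells of 3m it was 213, and *Rgs5* (2.76) and *Spp1* (-2.60) changed sign. In rejected barcodes 5 genes were called by DESeq2, 7 with no replicate block, 3 with 3 or more markers, and 0 to 9 with 1 library left out (9 without replicate 2). The mean share of LOW_21 was 5.16% of cells that are not oligodendrocytes and 1.45% of all barcodes, and 1.85 to 2.63% with 1 library left out.

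Without the replicate block, the 3m comparisons had 1081, 1791 and 2037 calls (END_17, AST_3m, ODC). Between LOW_21 and PER_6 at P3 the numbers pair no samples: same-numbered libraries correlated at 0.0968, 0.0111 and 0.0269 in their deviations, replicates 2 and 3 correlated best with another number, and a block gave 995 calls, with *Notch1* (0.96) no longer called.

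Of the named genes, 9 of 28 lost their call against END_17 under some alternative, 7 of them under DESeq2, and none changed sign. Depth limits every value: 1 LOW_21 library held 39449 to 66435 UMIs.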

Other observations

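*Nodal*, a ligand of the TGF-beta family known from embryonic patterning, was the gene of rank 6 by fold over all other 3m cells, and it was picked with its values in view. It had 316, 355 and 290.1 CPM in LOW_21, 23.1, 46.7 and 43.8 in END_17 and 24.2, 28.1 and 30.6 in PER_6 at P3, so the LOW_21 libraries lay above both. The log2(fold change) was 2.91 ± 0.42 over END_17 and 3.36 ± 0.34 over PER_6 at P3. A UMI was present in 31 of 68 LOW_21 cells and in 0 of 1111 AST_3m cells. Its co-receptor *Tdgf1* had 5 UMIs in LOW_21 and 1 in END_17, and its inhibitor *Lefty1* had 30.1, 101 and 48.3 CPM in LOW_21 and 4.39, 5.27 and 10.9 in PER_6 at P3.

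*Aspn*, encoding the matrix protein asporin, had 467, 507 and 435 CPM in LOW_21 and 55.1, 70.0 and 26.8 in END_17 (3.02 ± 0.41), and 36.8, 57.9 and 78.7 in PER_6 at P3 (2.85 ± 0.31). The chemokine *Cxcl12* was lower than in END_17, at 421, 253 and 169 against 1738, 2257 and 2896 CPM (-3.19 ± 0.35). Both were chosen after their values were seen.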
